A study of Homo sapiens with 11 samples.

Results

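The pentose phosphate pathway enzymes were taken as the genes whose symbols in the count table were PGLS, PGD, H6PD, RPE, RPIA, TKT, TALDO1, DERA and PGM2, which gave 9 genes of the 58735 listed. All 9 passed the filter on low counts and were tested among 18368 genes. RNA came from HEK293T, a human embryonic kidney cell line that carries the SV40 large T antigen, harvested 48 h after lipid transfection of siRNA. The siNAE1 group (3 libraries, 50 nM) targeted NAE1, a subunit of the enzyme that activates the ubiquitin-like protein NEDD8, the siUBE2M group (3 libraries, 70 nM) targeted UBE2M, which conjugates NEDD8, and the siURM1 group (2 libraries, 60 nM) targeted URM1, a ubiquitin-like protein that also carries sulfur for tRNA thiolation. The control group (3 libraries) is labelled as control siRNA, and the methods name a non-targeting siRNA as the negative control, with its dose not given in the sources used here. The study's supplement also names these libraries HKWT, so whether they were transfected is uncertain, and an effect of transfection cannot be told apart from knockdown in the comparisons with control if they were not. The control and knockdown cells otherwise shared line and medium. The study asked which genes respond to loss of URM1 and of the enzymes that act on it.

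The pathway takes glucose 6-phosphate out of glycolysis. Its oxidative branch makes NADPH, the reducing power for glutathione, thioredoxin and lipid synthesis, and ends in ribulose 5-phosphate. Its non-oxidative branch converts pentose phosphates back and forth with glycolytic sugars, and supplies the ribose 5-phosphate from which nucleotides are built. H6PD runs the opening oxidative reactions inside the endoplasmic reticulum (ER), where NADPH is held apart from the cytosolic pool. DERA and PGM2 connect the sugars of broken-down nucleosides to the pathway.

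Totals ran from 11733163 to 16321391 counts per library. Each targeted gene was lowest in its own knockdown, with NAE1 at 39% of control in siNAE1 cells, UBE2M at 6.34% in siUBE2M cells and URM1 at 28.6% in siURM1 cells. All 7 HEK293T markers were detected in all 11 libraries. Markers of a liver line summed to at most 0.347 FPKM and those of blood cells to at most 0.0904 FPKM, with the T cell gene CD3E at 0 in all 11 libraries. In bulk RNA, fewer cells expressing a gene and less RNA per cell cannot be told apart.

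The RefSeq promoters of all 9 enzymes (GRCh38.p14, 250 bases before to 50 after the start site) were searched on both strands for 5 short motifs, which were picked after the expression values were known. The antioxidant response element, the motif of the oxidative stress factor NRF2, was spelled TGACNNNGC and was present in 13.3% of 35116 promoters. It was found in PGD and RPE, which moved differently in the knockdowns. The E-box, spelled CACGTG and bound by MYC and related factors, was present in 7.26% of promoters and, among the enzymes, in PGM2, the enzyme with the largest rise. The 3 stretches that hold these matches are shown 5′ to 3′ on the plus strand, the strand of all 3 genes, with the match in capitals. The PGD match reads in reverse, on the minus strand. The matches begin 201 bases (PGD), 151 bases (RPE) and 196 bases (PGM2) before the start site, and none of the 3 matches overlapped another searched motif.
PGD, chr1:10398854-10398881: ctcgccgggGCAATGTCAtctaggtgct
RPE, chr2:210002478-210002505: gcggacggcTGACAGCGCcccaccccag
PGM2, chr4:37826479-37826506: aacccttctcaCACGTGccaggttccag

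The CCAAT box, spelled CCAAT and present in 34.6% of promoters, was found in 6 enzymes (PGD, RPE, RPIA, TKT, TALDO1 and DERA). The GC box, spelled GGGGCGGGG and present in 15.7% of promoters, was found in 5 (RPE, TKT, TALDO1, DERA and PGM2). The ER stress response element, made of CCAAT, any 9 bases and CCACG so that each match also holds a CCAAT box, was present in 0.0769% of promoters and in 0 of the 9. PGLS and H6PD held none of the 5 motifs in these windows. The H6PD window lay at chr1:9239597-9239896, inside the gene model of the count table (chr1:9234775-9271337). The PGD window, at chr1:10398814-10399113, also lay inside its gene model (chr1:10398592-10420144). Neither window need cover every start site of its gene. These matches describe letters and were not tested for binding.

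Levels are first compared between enzymes in FPKM, the deposited fragment counts scaled to gene length and library size. In control cells PGD was the highest at 57.5 ± 1.78 FPKM (mean ± SD, n = 3), followed by TKT at 46.9 ± 1.26 and TALDO1 at 39.5 ± 1.08. RPIA at 25.5 ± 1.53 and PGLS at 25.4 ± 0.637 overlapped between libraries, so their order was not resolved. RPE at 19.3 ± 0.723, DERA at 13.3 ± 1.05, H6PD at 6.83 ± 0.242 and PGM2 at 5.63 ± 0.276 FPKM followed without overlap between neighbours. On this scale the cytosolic dehydrogenase and the sugar-exchanging enzymes were the abundant transcripts, and the ER enzyme and the nucleoside-sugar enzymes the scarce ones. The order depends on the gene length used, which was 9507 bases for TKT and 2966 bases for PGD. Before scaling to length, TKT was above PGD, at 6901 to 7647 counts against 2761 to 2839 counts in control libraries. The size of each FPKM ratio and sum below rests on the same lengths.

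**Figure D1:**
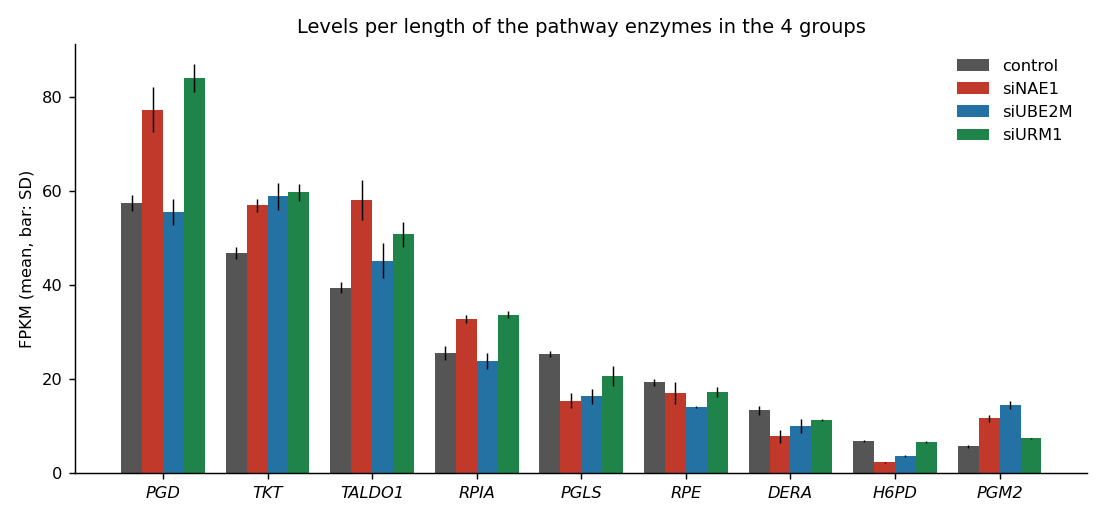
Mean FPKM of the 9 enzymes in the 4 groups, ordered by control level, with bars for the SD (n = 3, and n = 2 for siURM1). PGD was highest in control, siNAE1 and siURM1 cells, TKT was highest in siUBE2M cells, and H6PD was lowest in each knockdown.

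The order shifted with knockdown. H6PD moved from the eighth place in control cells to the last in each knockdown, at 2.23 ± 0.0198 FPKM (n = 3) in siNAE1, 3.64 ± 0.176 (n = 3) in siUBE2M and 6.6 ± 0.197 (n = 2) in siURM1 cells. PGM2 passed DERA in siNAE1 cells, where it averaged 11.6 FPKM against 7.78 FPKM, and in siUBE2M cells, where it averaged 14.5 FPKM against 10 FPKM. In siURM1 cells PGM2 stayed below DERA, at 7.42 FPKM against 11.3 FPKM. In siUBE2M cells TKT (58.9 FPKM) and PGD (55.6 FPKM) overlapped at the top, while in siNAE1 cells TALDO1 (58.2 FPKM) and TKT (57 FPKM) overlapped behind PGD. Summed over the 9 enzymes, FPKM ran from 236 to 242 in control, 266 to 288 in siNAE1, 230 to 257 in siUBE2M and 286 to 297 in siURM1 libraries.

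For comparisons of each enzyme between groups, CPM values were used, which are counts scaled to a common library total with factors from the trimmed mean of M values (TMM), and adjusted p-values came from the quasi-likelihood F test of edgeR, corrected over the whole table by the Benjamini-Hochberg method. At adjusted p under 0.05, 8 of the 9 enzymes passed in siNAE1 cells, where 54.7% of all genes passed. Of these, 5 were higher and 3 lower, beside 27.6% and 27.1% of all genes. In siUBE2M cells 7 passed against 45.3% of all genes, 3 of them higher (22.7% of all genes) and 4 lower (22.6%). In siURM1 cells 6 passed against 41.6% of all genes, 5 of them higher and 1 lower (20.8% of all genes in each direction). The CPM range did not overlap control for 8 enzymes in siNAE1, 7 in siUBE2M and 8 in siURM1 cells, as it did not for 59.5%, 53.7% and 60.8% of all genes. TKT, TALDO1 and PGM2 rose in all 3 knockdowns, a pattern met by 9.3% of genes, and PGLS fell in all 3, as did 9.62% of genes. The 3 comparisons share the control libraries.

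**Figure D2:**
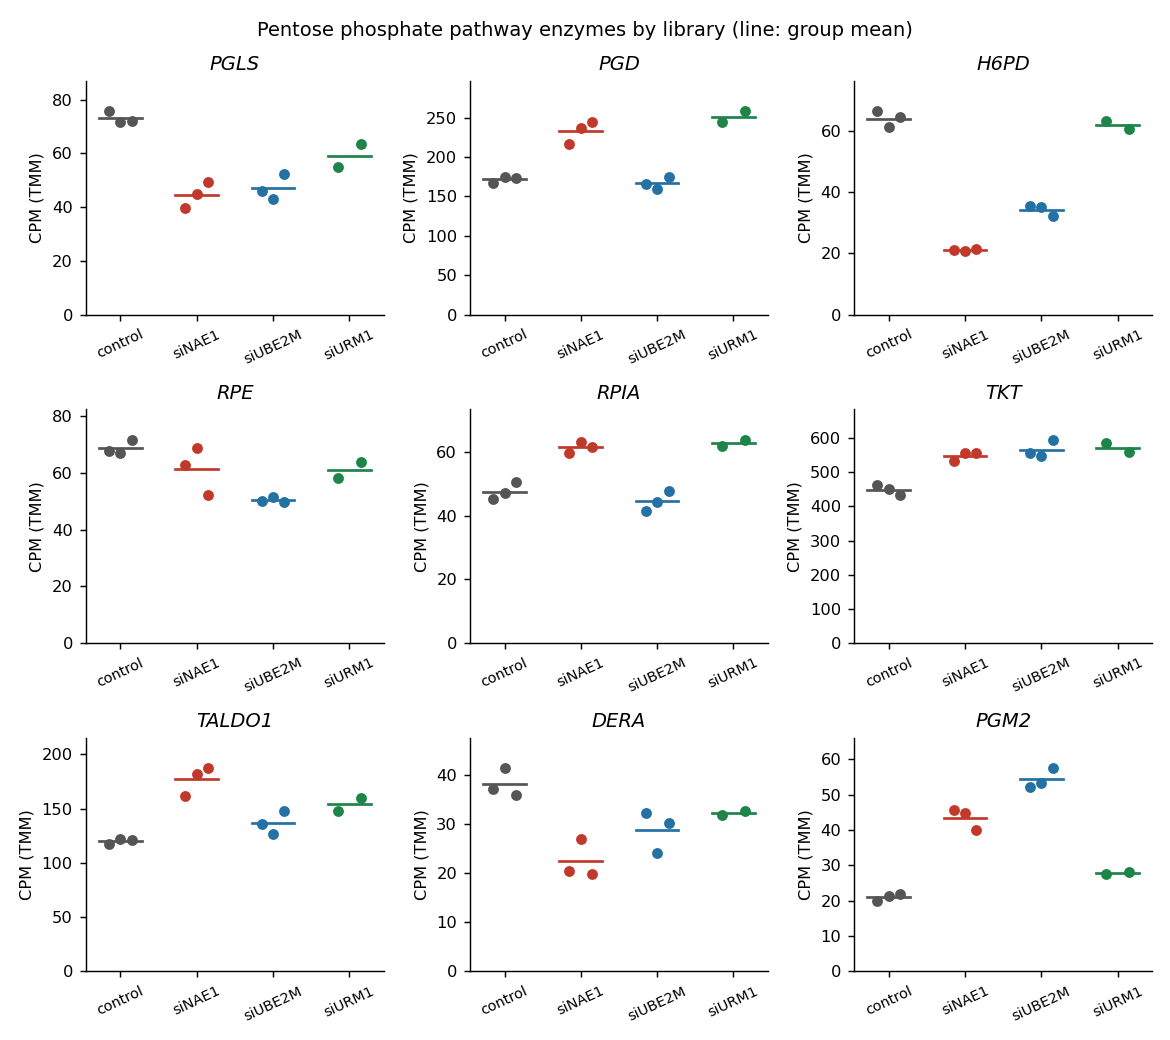
CPM of each enzyme in each of the 11 libraries, with a line at the group mean and each vertical axis starting at 0. H6PD was lowest in the 3 siNAE1 libraries, PGM2 was highest in the 3 siUBE2M libraries, and PGD was high in siNAE1 and siURM1 libraries but not in siUBE2M libraries.

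Among the oxidative enzymes of the cytosol, PGLS hydrolyses the lactone made from glucose 6-phosphate. Its CPM was 75.6, 71.8 and 71.9 in control, 39.7, 44.9 and 49.2 in siNAE1, 45.9, 43.1 and 52.2 in siUBE2M, and 55 and 63.4 in siURM1 libraries. No knockdown library reached the control range, and the siNAE1 and siUBE2M libraries overlapped each other. PGLS fell by 0.72 on the log2 scale in siNAE1 cells (SE 0.09, adjusted p = 1.8e-08), by 0.64 in siUBE2M cells (SE 0.08, adjusted p = 2.2e-07) and by 0.31 in siURM1 cells (SE 0.09, adjusted p = 0.0087). The siURM1 call rested on the library at 55 CPM, since without it the log2 difference was -0.20 (adjusted p = 0.21). PGLS was lower in siNAE1 than in siURM1 cells (log2 difference -0.41, adjusted p = 0.00092) and lower in siUBE2M than in siURM1 cells (-0.33, adjusted p = 0.0068), the second of which was lost without the siURM1 library at 63.4 CPM (-0.23, adjusted p = 0.16), as was the first at the margin (-0.31, adjusted p = 0.05). Between siNAE1 and siUBE2M cells the difference was -0.08 with a 95% interval from -0.26 to 0.10. On the opposite strand PGLS overlaps AC010618.3, a noncoding gene with 31 to 90 counts.

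PGD, 6-phosphogluconate dehydrogenase, makes NADPH and ribulose 5-phosphate. It measured 167, 175 and 174 CPM in control, 217, 237 and 245 in siNAE1, 166, 160 and 175 in siUBE2M, and 245 and 258 in siURM1 libraries. The siNAE1 and siURM1 libraries lay above every control library, whereas the siUBE2M and control libraries overlapped. PGD rose by 0.44 on the log2 scale in siNAE1 cells (SE 0.06, adjusted p = 3.2e-07) and by 0.55 in siURM1 cells (SE 0.07, adjusted p = 6.6e-08). In siUBE2M cells the difference was -0.04, with a 95% interval from -0.17 to 0.08 (adjusted p = 0.59). Compared directly, PGD was lower in siUBE2M than in siURM1 cells (log2 difference -0.59, adjusted p = 2.6e-08) and higher in siNAE1 than in siUBE2M cells (0.48, adjusted p = 1.1e-07), while siNAE1 and siURM1 cells differed by -0.11 (95% interval -0.25 to 0.03).

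H6PD, the bifunctional dehydrogenase and lactonase of the ER lumen, fell the most of the 9. It measured 66.5, 61.4 and 64.7 CPM in control, 21.1, 20.9 and 21.3 in siNAE1, 35.6, 35.1 and 32.4 in siUBE2M, and 63.3 and 60.7 in siURM1 libraries. The siNAE1, siUBE2M and control values formed 3 separate ranges, and siURM1 overlapped control. The level in siNAE1 cells was 32.9% of control (log2 difference -1.61, SE 0.08, adjusted p = 7.8e-17) and in siUBE2M cells 53.5% (-0.90, SE 0.08, adjusted p = 3.5e-11). In siURM1 cells it was 96.6% of control, with a 95% interval of the log2 difference from -0.22 to 0.12 (adjusted p = 0.67). Tested directly, H6PD was lower in siNAE1 than in siUBE2M cells (log2 difference -0.70, adjusted p = 4.4e-08), lower in siNAE1 than in siURM1 cells (-1.56, adjusted p = 5.6e-15) and lower in siUBE2M than in siURM1 cells (-0.85, adjusted p = 2.1e-09). Its raw counts were 237 to 299 in siNAE1 and 999 to 1102 in control libraries.

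The 3 oxidative enzymes therefore moved apart rather than as a block. Within each library, the ratio of PGD to H6PD in FPKM was 7.87 to 8.93 in control, 32.2 to 36.2 in siNAE1, 14.3 to 17 in siUBE2M and 12.2 to 13.3 in siURM1 libraries. The ratio of PGD to PGLS was 2.12 to 2.34, 4.78 to 5.23, 3.21 to 3.56 and 3.9 to 4.28 in the same order of groups. Neither ratio overlapped between control and any knockdown. In siUBE2M cells PGD, and in siURM1 cells H6PD, was not detectably different from control. These ratios are descriptions and were not tested.

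**Figure D3:**
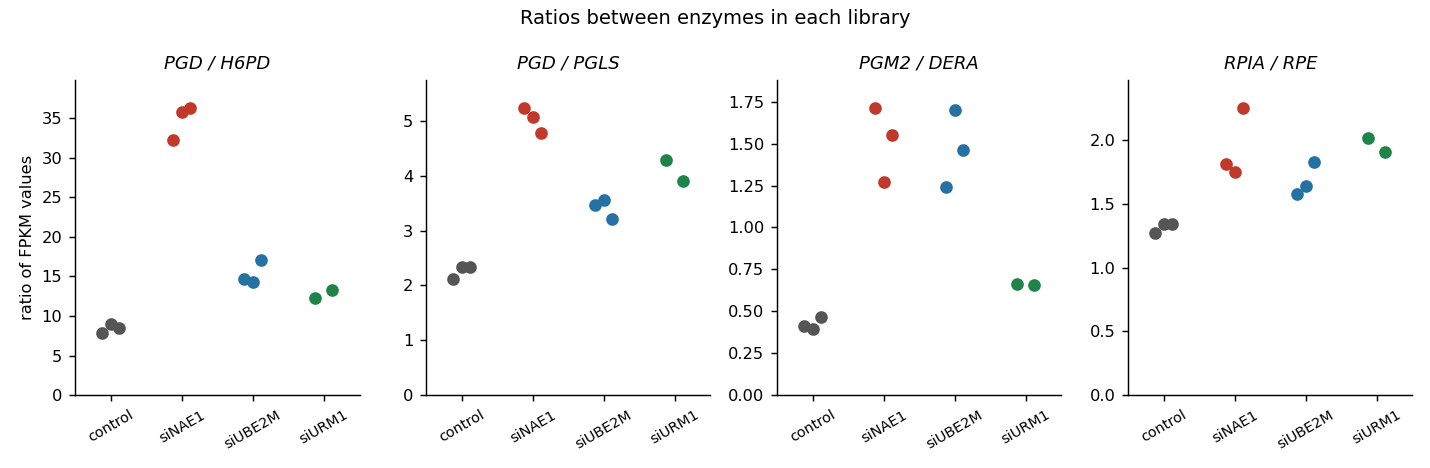
Ratios of FPKM between pairs of enzymes in each library, on linear axes from 0, with 1 point per library. PGD over H6PD was 7.87 to 8.93 in control and 32.2 to 36.2 in siNAE1 libraries, and PGM2 over DERA was 0.394 to 0.466 in control and 1.24 to 1.71 across the siNAE1 and siUBE2M libraries.

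In the non-oxidative branch, RPE turns ribulose 5-phosphate into xylulose 5-phosphate and RPIA turns it into ribose 5-phosphate. RPE measured 67.6, 66.9 and 71.6 CPM in control, 62.8, 68.8 and 52.1 in siNAE1, 50, 51.5 and 49.6 in siUBE2M, and 58.2 and 63.7 in siURM1 libraries. The siUBE2M libraries were tightly grouped below all others, the siURM1 libraries lay below control, and the siNAE1 libraries were spread across the control range and below it. RPE fell in siUBE2M cells (log2 difference -0.45, SE 0.08, adjusted p = 4e-05). It differed from control by -0.16 in siNAE1 cells (adjusted p = 0.095) and by -0.17 in siURM1 cells (adjusted p = 0.13). The siNAE1 value moved either way with single libraries, to -0.26 (adjusted p = 0.017) without the one at 68.8 CPM and to -0.06, not past the threshold, without the one at 52.1 CPM. With 10 counts required in every library it was -0.19 (adjusted p = 0.044). RPE shares part of its locus, on the opposite strand, with KANSL1L, which had 197 to 358 counts, and how far the deposited counting separated strands is not given in the sources used here.

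RPIA measured 45.1, 47 and 50.5 CPM in control, 59.8, 63.2 and 61.5 in siNAE1, 41.5, 44.4 and 47.7 in siUBE2M, and 61.8 and 63.8 in siURM1 libraries. As with PGD, siNAE1 and siURM1 libraries lay above control while siUBE2M libraries overlapped it. The log2 difference from control was 0.37 in siNAE1 cells (SE 0.08, adjusted p = 0.00012), 0.40 in siURM1 cells (SE 0.08, adjusted p = 0.00024) and -0.09 in siUBE2M cells (95% interval -0.25 to 0.06). RPIA was higher in siNAE1 than in siUBE2M cells (0.47, adjusted p = 9.5e-06) and lower in siUBE2M than in siURM1 cells (-0.49, adjusted p = 2.5e-05). The ratio of RPIA to RPE in FPKM, which sets the ribose-making isomerase beside the epimerase, was 1.27 to 1.34 in control, 1.75 to 2.25 in siNAE1, 1.58 to 1.83 in siUBE2M and 1.91 to 2.02 in siURM1 libraries.

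TKT and TALDO1, transketolase and transaldolase, pass carbon units between pentose phosphates and glycolytic sugars. TKT measured 462, 451 and 435 CPM in control, 533, 556 and 558 in siNAE1, 558, 548 and 595 in siUBE2M, and 585 and 560 in siURM1 libraries. Every knockdown library was above every control library, and the knockdowns lay close together. TKT rose by 0.29 (adjusted p = 5.1e-05), 0.33 (adjusted p = 9.8e-06) and 0.35 (adjusted p = 2.5e-05) on the log2 scale in siNAE1, siUBE2M and siURM1 cells, each with an SE of 0.06. The 3 differences between knockdowns were at most 0.06 in size, with 95% intervals that together ran from -0.19 to 0.11.

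TALDO1 measured 117, 122 and 121 CPM in control, 162, 182 and 187 in siNAE1, 136, 127 and 148 in siUBE2M, and 148 and 160 in siURM1 libraries. All knockdown libraries were again above control, with siNAE1 the highest. The rise was 0.57 on the log2 scale in siNAE1 cells (SE 0.07, adjusted p = 1.8e-08), 0.36 in siURM1 cells (SE 0.08, adjusted p = 0.0002) and 0.20 in siUBE2M cells (SE 0.07, adjusted p = 0.018). The last was lost without the siUBE2M library at 148 CPM (0.14, adjusted p = 0.12) or without the control library at 117 CPM (0.19, adjusted p = 0.062). TALDO1 was higher in siNAE1 than in siUBE2M cells (0.37, adjusted p = 3.8e-05). The ratio of TKT to TALDO1 in FPKM was 1.14 to 1.25 in control, 0.944 to 1.04 in siNAE1, 1.27 to 1.36 in siUBE2M and 1.11 to 1.25 in siURM1 libraries.

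**Figure D4:**
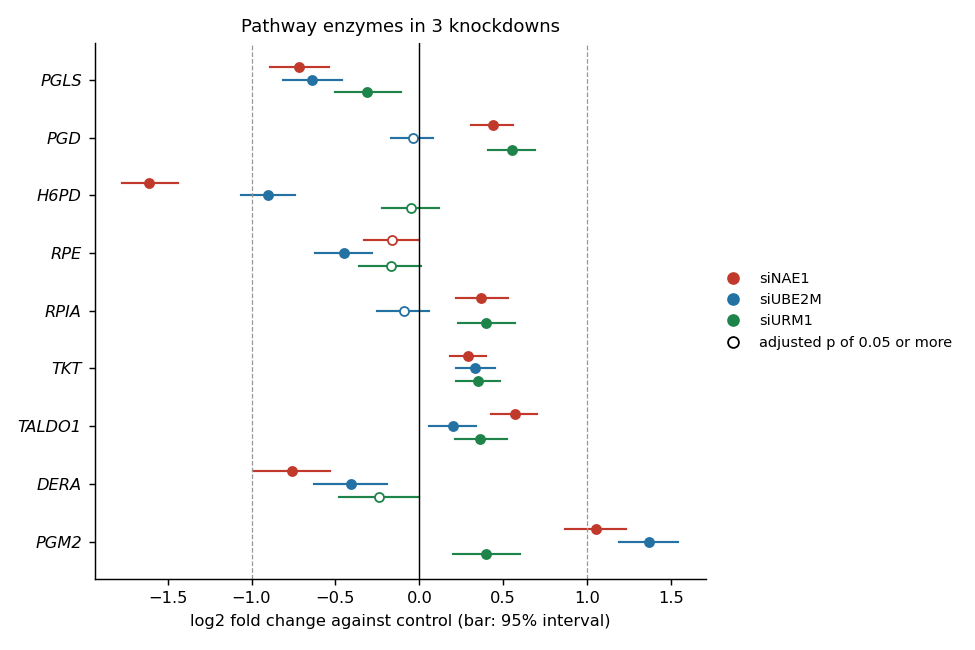
Log2 fold change of the 9 enzymes against control in the 3 knockdowns, with 95% intervals from the edgeR fit. Filled points passed an adjusted p of 0.05, open points did not, and dashed lines mark a log2 fold change of 1 in either direction. H6PD in siNAE1 cells (-1.61) and PGM2 in siNAE1 (1.05) and siUBE2M cells (1.37) lay beyond the dashed lines.

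Of the enzymes at the nucleoside end, DERA splits deoxyribose 5-phosphate into glyceraldehyde 3-phosphate and acetaldehyde. It measured 37.2, 41.4 and 36 CPM in control, 20.4, 27.1 and 19.8 in siNAE1, 32.3, 24.1 and 30.3 in siUBE2M, and 31.9 and 32.8 in siURM1 libraries. All knockdown libraries lay below control, with the siNAE1 group the lowest on average and partly overlapping siUBE2M. DERA fell in siNAE1 cells (log2 difference -0.76, SE 0.11, adjusted p = 7.2e-07) and in siUBE2M cells (-0.41, SE 0.11, adjusted p = 0.0025). The siUBE2M call was lost without the library at 24.1 CPM (-0.28, adjusted p = 0.052). In siURM1 cells the difference was -0.24 (95% interval -0.48 to 0.00, adjusted p = 0.11).

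PGM2, which converts ribose 1-phosphate and deoxyribose 1-phosphate to the 5-phosphates, had the largest rise of the 9. It measured 20, 21.3 and 21.8 CPM in control, 45.6, 44.9 and 39.9 in siNAE1, 52.1, 53.4 and 57.4 in siUBE2M, and 27.5 and 28 in siURM1 libraries. The 4 groups formed 4 separate ranges. PGM2 was 2.07 times control in siNAE1 cells (log2 difference 1.05, SE 0.09, adjusted p = 8.6e-12), 2.58 times in siUBE2M cells (1.37, SE 0.09, adjusted p = 3e-14) and 1.32 times in siURM1 cells (0.40, SE 0.10, adjusted p = 0.0015). It was lower in siNAE1 than in siUBE2M cells (log2 difference -0.32, adjusted p = 0.002) and higher in siUBE2M than in siURM1 cells (0.97, adjusted p = 1.6e-09). PGM2 was the enzyme that rose most in siUBE2M cells, while PGD and RPIA did not differ detectably from control there. The ratio of PGM2 to DERA in FPKM was 0.394 to 0.466 in control, 1.27 to 1.71 in siNAE1, 1.24 to 1.7 in siUBE2M and 0.654 to 0.661 in siURM1 libraries.

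Few of these changes were large. With the study's thresholds for differentially expressed genes (DEGs: adjusted p under 0.05 and a log2 fold change of 1 or more in size), 2 enzymes were DEGs in siNAE1 cells, PGM2 higher and H6PD lower, where 13.9% of all genes were DEGs. With limma on log2(FPKM + 1) the PGM2 difference in siNAE1 cells was 0.92, below the fold threshold, which left H6PD as the 1 DEG. PGM2 was the 1 DEG among the enzymes in siUBE2M cells, against 7.11% of all genes. In siURM1 cells 0 of the 9 were DEGs by edgeR, DESeq2 or limma, although 6 passed the adjusted p alone, against 7.62% of all genes. The median log2 fold change of the 9 was 0.29, -0.09 and 0.35 in siNAE1, siUBE2M and siURM1 cells, beside -0.00, 0.01 and -0.02 over all genes tested.

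By branch, the 4 non-oxidative enzymes included 3 that rose and 0 that fell in siNAE1 cells, 2 and 1 in siUBE2M cells, and 3 and 0 in siURM1 cells. Over all genes 27.6% rose and 27.1% fell in siNAE1 cells, 22.7% and 22.6% in siUBE2M cells, and 20.8% each way in siURM1 cells. The 2 cytosolic oxidative enzymes split in siNAE1 and siURM1 cells, with PGD higher and PGLS lower. The mean log2 CPM of PGLS and PGD minus that of the 4 non-oxidative enzymes was -0.07 to -0.01 in control, -0.53 to -0.30 in siNAE1, -0.44 to -0.33 in siUBE2M and -0.19 to -0.11 in siURM1 libraries. In this measure, which weighs each enzyme equally within its branch, every knockdown library lay below every control library. In siURM1 cells it joined a rise of PGD (0.55) to a fall of PGLS (-0.31), beside non-oxidative differences from -0.17 (RPE) to 0.40 (RPIA). Summed levels of the branches were not compared. H6PD minus the mean of PGLS and PGD was -0.87 to -0.75 in control, -2.37 to -2.13 in siNAE1, -1.56 to -1.24 in siUBE2M and -1.07 to -0.87 in siURM1 libraries on the same log2 scale.

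The knockdowns were also compared with each other across all 9 enzymes. Between siNAE1 and siUBE2M cells 7 enzymes differed, where 44.3% of all genes did, with PGD, RPE, RPIA and TALDO1 higher in siNAE1 (22.7% of all genes) and H6PD, DERA and PGM2 lower (21.6%). The RPE difference of 0.29 (adjusted p = 0.006) was lost without the siNAE1 library at 68.8 CPM (0.19, adjusted p = 0.091). The DERA difference of -0.35 (adjusted p = 0.012) was lost without the siNAE1 library at 20.4 CPM (-0.29, adjusted p = 0.072), that at 19.8 CPM (-0.27, adjusted p = 0.086) or the siUBE2M library at 32.3 CPM (-0.27, adjusted p = 0.084). Between siNAE1 and siURM1 cells 5 differed, where 38.6% of all genes did, with TALDO1 and PGM2 higher in siNAE1 (19.5% of all genes) and PGLS, H6PD and DERA lower (19.1%). The TALDO1 difference was 0.20 (adjusted p = 0.032) and was lost without the siNAE1 library at 182 CPM (0.18) or 187 CPM (0.17), the siURM1 library at 148 CPM (0.15), the control library at 117 CPM (0.19) or 121 CPM (0.19) or the siUBE2M library at 136 CPM (0.19), with adjusted p from 0.05 to 0.28, and with limma (0.19, adjusted p = 0.076). Between siUBE2M and siURM1 cells 6 differed, where 35% of all genes did, with PGM2 higher in siUBE2M (16.7% of all genes) and PGLS, PGD, H6PD, RPE and RPIA lower (18.3%). The RPE difference of -0.27 (adjusted p = 0.02) was lost without the siURM1 library at 63.7 CPM (-0.21, adjusted p = 0.19) and with limma (-0.26, adjusted p = 0.052). TALDO1 differed by -0.17 (adjusted p = 0.088), and by -0.23 (adjusted p = 0.022) without the siUBE2M library at 148 CPM. The PGLS difference of -0.33 was lost without the siURM1 library that measured 63.4 CPM for PGLS (-0.23, adjusted p = 0.16). H6PD between siNAE1 and siURM1 cells was the 1 difference between knockdowns that met the DEG thresholds, as 6.76% of genes did in that comparison. The DEG share of all genes was 7.84% between siNAE1 and siUBE2M cells and 5.41% between siUBE2M and siURM1 cells, with 0 of the 9 enzymes in either by edgeR, DESeq2 or limma.

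Of 22 genes that flank the pathway, 16 were tested. They include enzymes of upper glycolysis, sugar kinases and ribose phosphate synthetases. In siNAE1 cells 10 rose and 2 fell (27.6% and 27.1% of all genes), in siUBE2M cells 6 rose and 5 fell (22.7% and 22.6%), and in siURM1 cells 7 rose and 3 fell (20.8% each way). PRPS1, which builds phosphoribosyl pyrophosphate from the ribose 5-phosphate of the pathway, measured 154 to 157 CPM in control, 294 to 325 in siNAE1, 192 to 207 in siUBE2M and 247 to 266 in siURM1 libraries. The 4 ranges did not overlap, and the log2 rise was 1.01 (adjusted p = 3.1e-15), 0.37 (adjusted p = 5.2e-06) and 0.73 (adjusted p = 1.2e-10) in siNAE1, siUBE2M and siURM1 cells.

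RBKS and IDNK, kinases that bring other sugars in, fell in all 3 knockdowns. RBKS, ribokinase, which phosphorylates free ribose, measured 5.31 to 8.33 CPM in control, 1.79 to 2.38 in siNAE1, 1.9 to 2.46 in siUBE2M and 2.43 to 3.32 in siURM1 libraries. Its log2 difference from control was -1.74 (adjusted p = 2.4e-07), -1.60 (adjusted p = 1e-06) and -1.26 (adjusted p = 0.00016). IDNK, gluconate kinase, which makes the substrate of PGD from gluconate, measured 5.04 to 7.49 CPM in control, 0.35 to 0.897 in siNAE1, 1.33 to 2.62 in siUBE2M and 1.87 to 2.06 in siURM1 libraries, with log2 differences of -3.33 (adjusted p = 3.4e-10), -1.56 (adjusted p = 1.2e-05) and -1.64 (adjusted p = 4.8e-05). RBKS and IDNK were scarce in every group and lower in each knockdown library than in each control library. SHPK, another sugar kinase of the list, rose in siNAE1 (0.93, adjusted p = 3.3e-05) and siURM1 cells (0.66, adjusted p = 0.0062). It fell in siUBE2M cells (-0.79, adjusted p = 0.0013), and it overlaps on its own strand a gene with 189 to 818 counts.

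Other flanking genes met the DEG thresholds with less certain counts. ALDOC, an aldolase of glycolysis, rose by 1.86, 1.04 and 1.04 on the log2 scale in siNAE1, siUBE2M and siURM1 cells (adjusted p = 1e-10, 1.8e-05 and 6.6e-05), and it overlaps on its own strand a gene with 71 to 141 counts. TKTL1, a relative of transketolase, was higher in siNAE1 cells (1.11, SE 0.44, adjusted p = 0.035), at 0.568 to 0.845 CPM in control and 1.19 to 1.7 in siNAE1 libraries. RPEL1, the near copy of RPE, had at most 8 counts in any library, and pseudogenes of PGD, RPE and RPIA had at most 5.

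**Figure D5:**
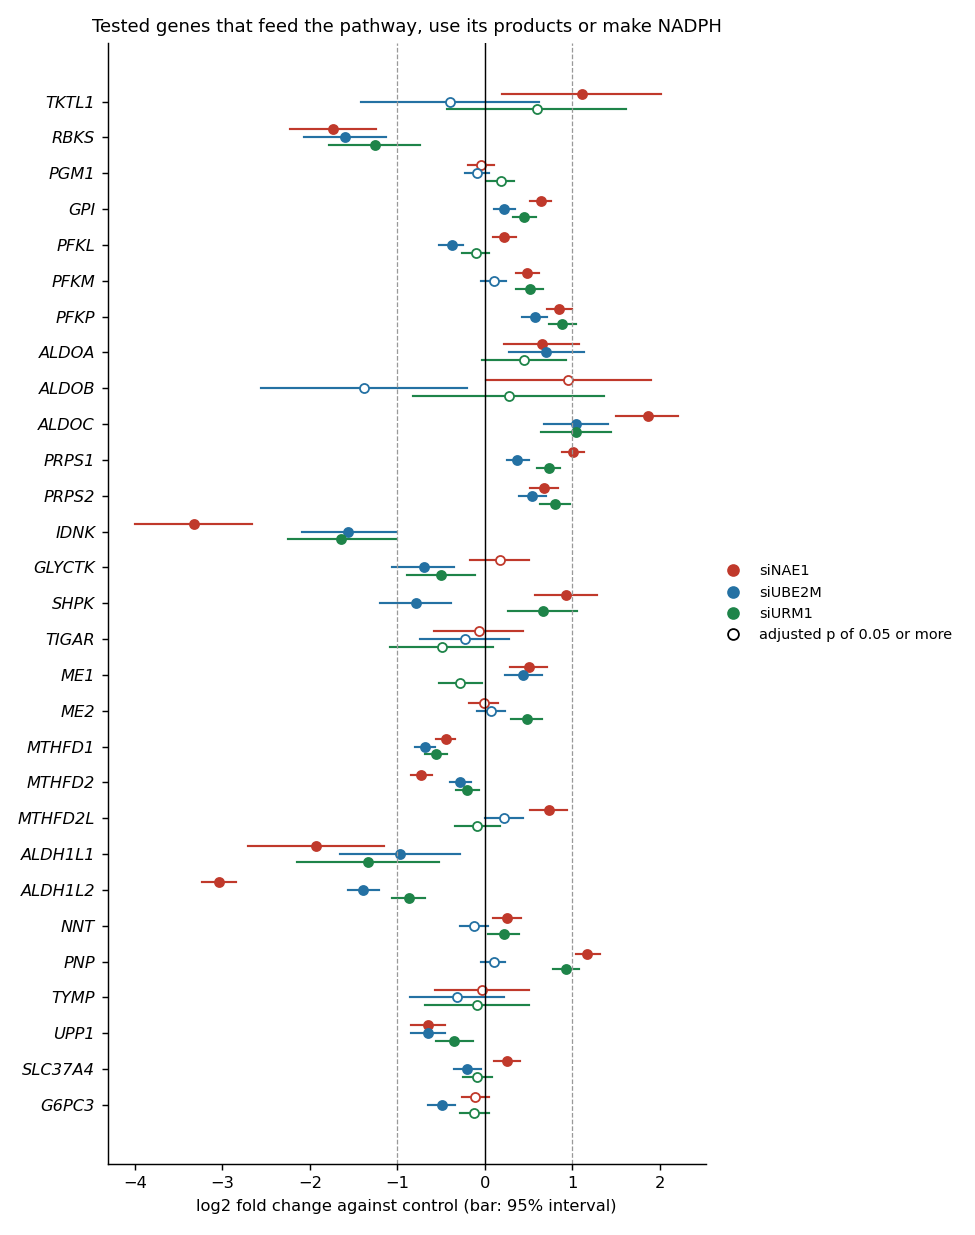
Log2 fold change against control, with 95% intervals from the edgeR fit, of the tested genes that flank the pathway, make NADPH elsewhere, release pentose 1-phosphates or handle glucose 6-phosphate in the ER. IDNK and ALDH1L2 lay furthest below 0 in siNAE1 cells (-3.33 and -3.04), and ALDOC and PNP furthest above (1.86 and 1.17).

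The nucleoside phosphorylases release the pentose 1-phosphates that PGM2 converts. Of 4, 3 were tested. PNP, which acts on purine nucleosides, measured 62.3 to 62.5 CPM in control, 137 to 143 in siNAE1, 64.1 to 69 in siUBE2M and 117 to 121 in siURM1 libraries. It rose in siNAE1 (log2 difference 1.17, adjusted p = 5.4e-16) and siURM1 cells (0.93, adjusted p = 3.8e-12) and differed by 0.10 in siUBE2M cells (adjusted p = 0.25), where PGM2 was highest. UPP1, which acts on uridine, measured 40 to 41.6 CPM in control, 22.4 to 28.3 in siNAE1, 25 to 26.5 in siUBE2M and 30.3 to 33.7 in siURM1 libraries, and it fell by 0.65, 0.65 and 0.35 on the log2 scale (adjusted p = 4.6e-07, 6.6e-07 and 0.0059).

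Beside H6PD in the ER, SLC37A4 carries glucose 6-phosphate into the lumen and G6PC3 hydrolyses it there. These were the 2 tested of 3 listed genes. SLC37A4 differed from control by 0.25 (adjusted p = 0.0048) in siNAE1, -0.20 (adjusted p = 0.031) in siUBE2M and -0.09 (adjusted p = 0.43) in siURM1 cells on the log2 scale. G6PC3 differed by -0.11 (adjusted p = 0.24), -0.49 (adjusted p = 2.7e-06) and -0.12 (adjusted p = 0.25). In the same order of knockdowns, H6PD differed by -1.61, -0.90 and -0.05.

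Of 9 other genes for enzymes that make NADPH, 8 were tested. In siNAE1 cells 3 rose and 4 fell (27.6% and 27.1% of all genes), in siUBE2M cells 1 rose and 4 fell (22.7% and 22.6%), and in siURM1 cells 2 rose and 4 fell (20.8% each way). ALDH1L2, the mitochondrial enzyme that oxidises formyltetrahydrofolate, measured 198 to 233 CPM in control, 22.6 to 28.3 in siNAE1, 69 to 90.1 in siUBE2M and 111 to 124 in siURM1 libraries. The groups did not overlap, and the log2 difference was -3.04 (adjusted p = 2e-22), -1.39 (adjusted p = 1.4e-14) and -0.87 (adjusted p = 5e-09). Its cytosolic relative ALDH1L1 differed by -1.93 (adjusted p = 7.1e-05), -0.97 (adjusted p = 0.019) and -1.34 (adjusted p = 0.0068). ALDH1L1 was scarce, at 2.02 to 3.2 CPM in control and 0.559 to 0.718 in siNAE1 libraries.

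Of 7 genes for enzymes that use NADPH, 4 rose and 0 fell in siNAE1 cells (27.6% and 27.1% of all genes), 3 rose and 2 fell in siUBE2M cells (22.7% and 22.6%), and 2 rose and 1 fell in siURM1 cells (20.8% each way), the last near the share of all genes. Of 8 NRF2 targets outside the pathway, 7 rose in siNAE1 cells (27.6% of all genes), 6 in siUBE2M cells (22.7%) and 2 in siURM1 cells (20.8%), the last near the share of all genes, and 0 fell. NQO1, a quinone reductase on both lists, rose by 1.26 (adjusted p = 9.4e-06) in siNAE1 and by 0.76 (adjusted p = 0.0058) in siUBE2M cells, and differed by 0.16 (adjusted p = 0.66) in siURM1 cells. HMOX1, the haem-degrading enzyme, rose by 2.10 (adjusted p = 2.3e-16), 0.48 (adjusted p = 0.0017) and 1.85 (adjusted p = 1.2e-13). OSGIN1, an oxidative stress response gene, was higher in siNAE1 cells (1.62, SE 0.57, adjusted p = 0.016). It was very scarce, at 0.184 to 0.631 CPM in control and 0.691 to 1.7 in siNAE1 libraries. Whether NRF2 took part in the change of any enzyme was not tested.

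The genes whose log2 CPM followed each enzyme most closely over the 11 libraries were ranked by Pearson's r among the 10467 genes that averaged 10 CPM or more. These values are descriptions, since the libraries form 4 groups and share their scaling. H6PD was followed most closely by ID4 (r = 0.989), PGM2 by HERC5 (0.988), PIK3R4 (0.988) and PSMD2 (0.985), and TALDO1 by TPI1 (0.99), POMP (0.989) and RBX1 (0.981). PGD was followed by BLOC1S4 (0.986), PGLS by C7orf50 (0.982) with UPP1 next (0.976), RPIA by KAZALD1 (0.982) and TKT by RPS9 (0.986). The closest genes to RPE and DERA, TMEM241 (0.948) and IFT46 (0.938), followed them less closely.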

How the data were processed

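Poly(A) RNA from 11 HEK293T libraries was sequenced as paired-end reads from a strand-marking kit. Per the labels and the study's methods, the authors trimmed reads with fastp 0.20.0, aligned them to GRCh38 with HISAT2 2.0.5 and counted fragments with featureCounts 1.5.0-p3. The annotation version and strand setting are not given in the sources used here. The deposited table holds raw counts per gene, and the authors also deposited FPKM values per gene.

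Groups came from the labels, which call the libraries biological replicates. All 11 libraries in 4 groups were fitted together with edgeR 4.0.16 (R 4.3.3; TMM, filterByExpr, quasi-likelihood F test, 18368 genes). Benjamini-Hochberg adjustment ran over all genes tested. DEGs passed an adjusted p of 0.05 and an absolute log2 fold change of 1. The common biological coefficient of variation was 7.06%, and TMM factors ran from 0.9487 to 1.056. The 95% intervals use the fit's degrees of freedom. Counts were used for comparisons between groups, and FPKM for levels between genes.

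The alternatives were DESeq2 1.42.0, limma 3.58.1 on log2(FPKM + 1), other scaling, filters, fitted groups, a replicate term and leaving out each library. On simulated counts for each knockdown against control, edgeR recovered 100 of 100 genes changed 2-fold and 100 of 100 changed 4-fold, with 6 to 14 false calls. The changed genes averaged at least 100 counts, and all genes were given the common coefficient of variation. Fewer genes were changed than passed in the data. Recovery of smaller changes and of scarcer genes was not tested. All 9 enzymes were named. A gene of another list was named when it was a DEG in a knockdown against control, and otherwise when highest or lowest in its list. SHPK was added as a sugar kinase that moved differently from RBKS and IDNK. The members and lists were chosen with earlier results of these data known. Promoters came from RefSeq (GRCh38.p14). The siRNA sequences were not used here.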

Additional observations from a re-analysis of the deposited data

How the results depend on the processing

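Of 972 recomputed log2 differences of single enzymes, 940 kept their direction and side of the threshold, 20 lost the call, 4 gained it and 8 changed sign. The 8 lay near 0. PGLS between siNAE1 and siUBE2M cells became 0.00 without siUBE2M replicate 3, in a range from -0.15 to 0.00 over the left-out libraries. RPE between siNAE1 and siURM1 cells became -0.00 with 2 groups per fit, -0.01 with limma, -0.00 or -0.08 without siNAE1 replicate 1 or 2, and -0.05 without siURM1 replicate 1, in a range from -0.08 to 0.11. TKT between siUBE2M and siURM1 cells became 0.01 without siUBE2M replicate 2 or siURM1 replicate 1, in a range from -0.05 to 0.01. The cause was not tested.

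With limma on log2(FPKM + 1), which shrinks changes of low genes, 1 enzyme (H6PD, without PGM2) was a DEG in siNAE1 cells in place of 2. Over all genes, DEGs numbered 2555, 1306 and 1399 in siNAE1, siUBE2M and siURM1 cells against control, and 1440, 1241 and 993 for siNAE1 against siUBE2M, siNAE1 against siURM1 and siUBE2M against siURM1. Requiring 10 counts in every library, which tests fewer genes, gave 1484, 686, 823, 780, 740 and 603 in that order, and limma gave 713, 294, 345, 266, 292 and 222. Leaving out single libraries gave 8 to 9, 6 to 7 and 5 to 6 enzymes past the adjusted p in siNAE1, siUBE2M and siURM1 cells.

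No shared pattern by replicate number was seen, since 0 of 15 same-numbered pairs had deviations correlated above 0.1 (range -0.0657 to 0.0787). Deviations within groups of 2 or 3 libraries are tied to each other, so these pairs are not independent. Low correlations cannot show that the replicates were unpaired. With a replicate block, 8, 7 and 6 enzymes passed against control, as without it, and siNAE1 DEGs over all genes numbered 2534. Under the block TALDO1 lost its call between siNAE1 and siURM1 cells (0.17, adjusted p = 0.08, edgeR) and gained one between siUBE2M and siURM1 cells (-0.20, adjusted p = 0.038). With 2 siURM1 libraries, leaving out either assumes that the other varies like the remaining groups. Groups of 2 or 3 were too small for a check of single outlying libraries.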
